A study of Mus musculus with 6 samples.

Results

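Histones package DNA into nucleosomes, and their genes fall into a replication-dependent class and a class of replacement variants. Here the histone genes were taken as all non-control array probes whose gene name begins with Hist1h, Hist2h, Hist3h or Hist4h (replication-dependent) or with H2af, H3f3 or H1f (replacement variants). This gave 77 probes of 64 gene names, out of 39429 probes of 31791 gene names on the array. Of these, 52 probes of 48 names were replication-dependent and 25 probes of 16 names belonged to replacement variants.

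The series compared gene expression of hematopoietic stem cells that had gone through serial transplantation with or without p190-B, the protein encoded by Arhgap5. Loss of p190-B is lethal to the embryo, so donor cells came from the fetal liver of p190-B-/- embryos or of WT littermates (CD45.2+, from p190-B+/- mice backcrossed into C57BL/6J), and were transplanted with CD45.1+ competitor marrow into lethally irradiated CD45.1+ hosts whose marrow was later passed on to secondary recipients (2T). LSK-SLAM cells, sorted from the secondary recipients' marrow as lineage-negative, c-Kit+, Sca+, CD150+ and CD48-, are enriched for stem cells. The sort described with the samples names no CD45.2 gate, and whether competitor or host cells were among them was not tested. Their RNA was amplified and labelled with Cy3 by a protocol that is not disclosed, and hybridised to 6 Agilent arrays, 3 of 2T-WT and 3 of 2T-p190-B-/-, with independent mice stated for each genotype.

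Replication-dependent histone genes lie in clusters, have no introns and are transcribed in S phase, when new DNA needs histones. Their mRNA ends in a short stem-loop in place of a poly(A) tail, and the stem-loop binding protein SLBP carries it through processing and translation. Replacement variants are made outside S phase too, from genes that mostly have introns and a poly(A) tail, and take the place of the common forms at active genes (H3.3), promoters (H2A.Z), sites of DNA damage (H2A.X) or silent chromatin (macroH2A). Long-term stem cells divide rarely. In RNA of sorted cells, fewer cells in S phase and less histone RNA per cell cannot be told apart. Which RNA the undisclosed amplification copied (by poly(A) tail or not) is not given, and its part in the levels of the stem-loop class was not tested.

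Levels are given as log2 of the processed signal relative to the array's 75th percentile, so that 0 is the 75th percentile, and a probe is named by its gene and the number of transcript bases before it (H2afz at 897). A probe's level depends on its sequence, so that arrays and genotypes were compared within a probe, and levels of different probes, or sums over them, do not rank amounts of RNA. In replicate order, that percentile was 124.6, 227.4 and 53.93 signal units for 2T-WT and 385.2, 320.6 and 252.3 for 2T-p190-B-/-. Since the dimmest readable spot lies at a different place on each scale, from −2.26 on 2T-WT replicate 3 to −4.84 on 2T-p190-B-/- replicate 1, a probe at background reads differently from array to array without any difference in RNA. Arhgap5, the deleted gene, has 1 probe. It read −4.74, −5.55 and −4.44 in 2T-WT and −5.46, −2.71 and −6.01 in 2T-p190-B-/-, was well above background only on 2T-p190-B-/- replicate 2, and gave no check of the genotypes.

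Most histone probes were readable. Of the 77, 57 (74%) were well above background on at least 3 arrays and were tested, against 63.8% of all probes, and 42 (54.5%) were above it on all 6 arrays, against 34.9% of all probes. The tested ones were 38 of 52 replication-dependent and 19 of 25 replacement-variant probes, of 50 gene names. No array showed 8 of the 48 replication-dependent genes above background (for instance Hist1h1d, Hist1h3a and Hist2h2ab), while each of the 16 replacement-variant genes was above it on at least 1 array. By array, 61.5%, 73.1% and 65.4% of the replication-dependent probes were readable in 2T-WT and 82.7%, 71.2% and 73.1% in 2T-p190-B-/-, with 68%, 80% and 64% and then 84%, 60% and 72% for the replacement variants. Over all probes these shares were 48.4%, 66.5% and 50.6%, and 73.1%, 53% and 64.2%, so on every array either class was readable more often than all probes were.

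In build mm9, 37 of the 38 Hist1 probes lie on chromosome 13 between 21814057 and 24026527, a span of 2.21 Mb, and the remaining one, Hist1h2al, lies elsewhere on that chromosome. The 10 Hist2 probes lie on chromosome 3 between 96024171 and 96074115, the 3 Hist3 probes on chromosome 11 between 58762964 and 58769013, and Hist4h4 on chromosome 6 from 136752681 to 136752740. The replacement variant H2afj, which encodes H2A.J, sits close to Hist4h4, its first probe covering 136757181 to 136757240 of chromosome 6.

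The end of the replication-dependent mRNA was itself spotted on the array. A stem-loop with the 6-base stem GGCTCT, a loop of 4 bases and the stem's reverse complement was looked for on the strand of the probe, and was found in 5 of the 39429 probes (0.0127%). All 5 were replication-dependent histones, 9.62% of that class, and none was a replacement variant. The 30 bases around each stem-loop are shown 5′ to 3′ with the stem-loop in capitals, since this element sets the class apart.
Hist1h3a: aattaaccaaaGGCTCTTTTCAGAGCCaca
Hist1h3g: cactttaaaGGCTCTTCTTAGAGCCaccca
Hist1h3i: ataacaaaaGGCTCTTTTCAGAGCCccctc
Hist2h2aa1: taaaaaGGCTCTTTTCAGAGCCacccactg
Hist2h2bb: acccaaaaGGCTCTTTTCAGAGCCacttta

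The probes that carry the stem-loop did not read alike. Hist1h3i, an H3 gene, was above background on all 6 arrays, at 0.33, −0.09 and 1.66 in 2T-WT and −0.40, −0.22 and 1.34 in 2T-p190-B-/-. Hist2h2bb, an H2B gene, was also above it on all 6, at −2.29, −1.50 and −1.43 in 2T-WT and −1.81, −2.72 and −3.09 in 2T-p190-B-/-. The genotypes overlapped in both. Hist2h2aa1 was readable on 4 arrays, Hist1h3g on 2 and Hist1h3a on none, so probes that carry the stem-loop gave signal in both genotypes but not for every gene. In Hist1h3i and Hist2h2bb it starts at bases 40 and 39 of the probe, and whether the RNA bound there extends over the stem-loop was not tested.

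Where a probe lay along the transcript went with whether it could be read. Of the replication-dependent core histones (H2A, H2B, H3 and H4), 30 of 36 probes with fewer than 500 bases before them were tested (83.3%), against 4 of 10 further along (40%). Over all probes on the array the shares well above background on 3 arrays were 74.9% and 61.5%. This boundary was chosen after the values were seen. The 4 tested probes beyond it included Hist1h2be at 2375, which encodes an H2B and read 0.94, 2.32 and 1.15 in 2T-WT and 1.80, 1.41 and 0.61 in 2T-p190-B-/-, far downstream of where a stem-loop mRNA of a core histone ends. Hist2h2be at 1849, another H2B gene, read 4.46, 1.59 and 0.09 in 2T-WT and 0.30, 0.12 and 3.21 in 2T-p190-B-/-, a wide spread within each genotype.

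**Figure D1:**
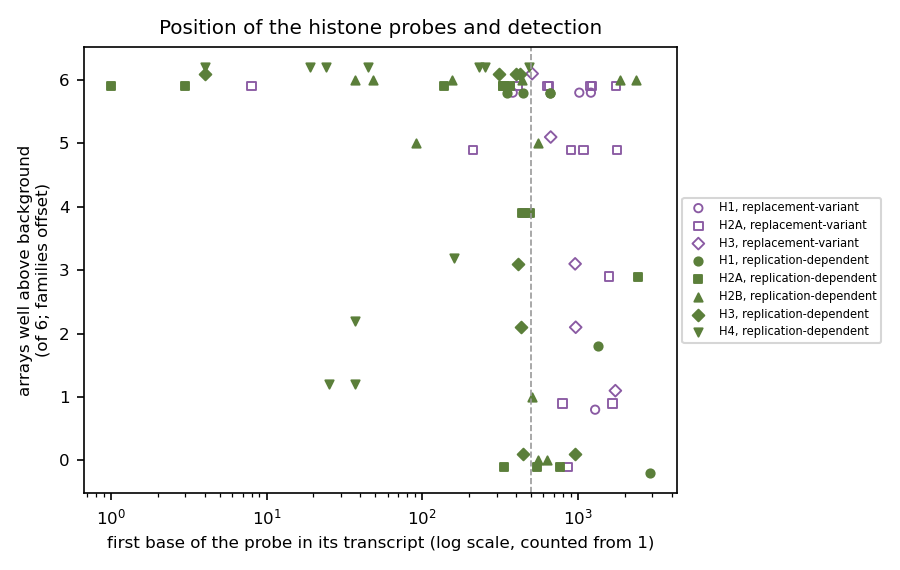
Number of arrays (of 6) on which each of the 77 histone probes was well above background, against the first base of the probe in its transcript on a log axis. Filled symbols are replication-dependent and open symbols replacement-variant probes, the shape gives the histone family, families are offset slightly for legibility, and the dashed line marks base 500. Of the core replication-dependent probes, 4 of the 10 beyond the line were well above background on at least 3 arrays, against 30 of the 36 before it.

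Histone genes of a family resemble one another so closely that a probe named for one can bind the RNA of several. The clearest case of shared sequence was H2A. A run of 29 bases near the end of the coding sequence was shared, letter for letter, by 6 probes named for 6 genes: Hist1h2af, Hist1h2ah, Hist1h2ak, Hist2h2aa2, Hist2h2ac and the replacement variant H2afj. No other probe on the array holds it. It was found as the longest run in at least 6 histone probes. These probes may not read separate genes, which was not tested. Their 60 bases are given 5′ to 3′ with the shared run in capitals.
H2afj: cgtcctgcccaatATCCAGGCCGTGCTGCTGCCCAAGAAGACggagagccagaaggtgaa
Hist1h2af: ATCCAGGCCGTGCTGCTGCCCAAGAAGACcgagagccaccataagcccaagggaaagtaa
Hist1h2ah: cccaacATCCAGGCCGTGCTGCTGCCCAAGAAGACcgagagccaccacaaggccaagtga
Hist1h2ak: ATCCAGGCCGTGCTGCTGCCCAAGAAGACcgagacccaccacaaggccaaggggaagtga
Hist2h2aa2: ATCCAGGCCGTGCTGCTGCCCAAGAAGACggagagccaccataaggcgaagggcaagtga
Hist2h2ac: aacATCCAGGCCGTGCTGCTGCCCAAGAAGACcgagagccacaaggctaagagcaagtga

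The 5 cluster probes each read in frame to a stop codon at their last bases, so they cover the end of the H2A coding sequence. Their locations in mm9 were chromosome 13 for Hist1h2af (23626113 to 23626172), Hist1h2ah (22127035 to 22127094) and Hist1h2ak (21845304 to 21845363), and chromosome 3 for Hist2h2aa2 (96049837 to 96049896) and Hist2h2ac (96024378 to 96024437).

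These 6 probes moved together over the arrays. After each probe was centred on its own mean, the average profile of the 6 was 1.36, −1.33 and 0.82 in 2T-WT and −0.32, −1.18 and 0.65 in 2T-p190-B-/-, so that both genotypes were lowest on replicate 2. The mean distance of a member from this profile was 0.04 to 0.12 (median 0.09), the other 36 histone probes readable on all arrays lying 0.51 to 2.69 from it (median 1.13). The profile is the average of the 6 themselves, H2afj included, which brings them nearer to it, so part of this contrast was fixed in advance. H2afj at 412, at 5.48, 2.95 and 4.92 in 2T-WT and 4.04, 3.24 and 4.99 in 2T-p190-B-/-, lay 0.11 from that profile, although it belongs to the other class. Its probe further along the gene (H2afj at 1664) was above background on 1 array, 2T-p190-B-/- replicate 1.

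A close relative of these probes had a different profile. Hist1h2an carries the same stretch with 2 differing bases, shown here in capitals, and differs outside it too, sharing 55 of 60 bases with Hist1h2af and 52 with Hist2h2aa2, so that the part of the 2 bases was not tested.
Hist1h2an: atccaggccgtActgctgccGaagaagac
Its probe (chromosome 13, 21878695 to 21878754) read 5.20, 1.25 and 2.29 in 2T-WT and 3.19, 1.66 and 3.46 in 2T-p190-B-/-, at a distance of 0.56 from the profile of the 6. Hist1h2ag, which holds only the later part of the stretch, read 5.32, 2.00 and 2.07, then 3.31, 1.75 and 1.29. Both were far lower on 2T-WT replicate 3 than on replicate 1, where the average profile of the 6 was at 0.82 and 1.36. Hist2h2ab, with 8 differing bases, was above background on no array.

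**Figure D2:**
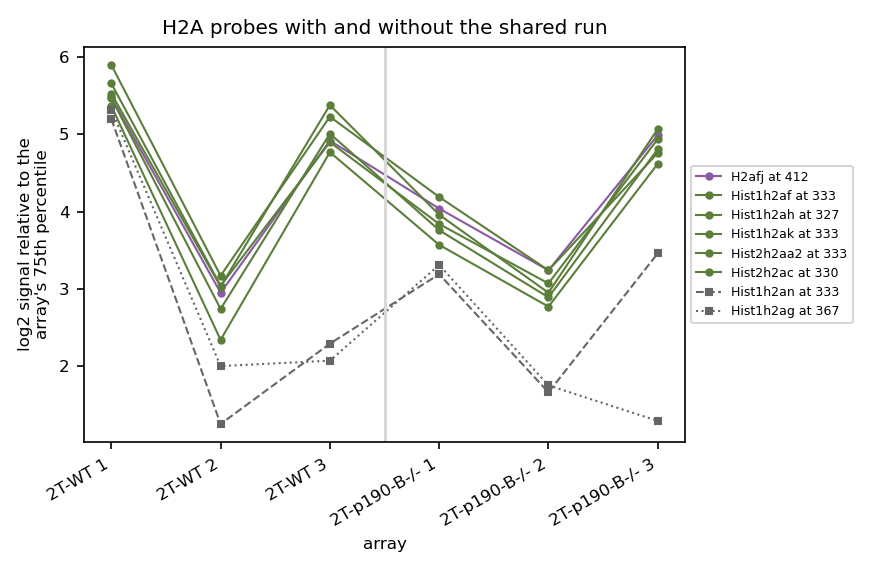
Log2 level on each of the 6 arrays for the 6 H2A probes that share the run of 29 bases (green, with H2afj in purple) and for Hist1h2an and Hist1h2ag, which do not hold it whole (grey). Lines join the values of 1 probe and imply no order of arrays. The 6 probes rise and fall together over the arrays, while Hist1h2an and Hist1h2ag part from them on 2T-WT replicate 3.

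Comparing the genotypes, 0 of the 57 histone probes and 0 of all 25127 probes tested (0%) had a limma adjusted p under 0.05, the smallest among the histones being 0.638. Without adjustment 1654 probes had a limma p under 0.05, 3 of them histones, and the methods' t-test gave 0 probes after adjustment and 1783 before it, 4 of them histones. At an unadjusted limma p under 0.05, 1 histone probe (1.75% of 57) was higher in 2T-p190-B-/- and 2 (3.51%) were lower, beside 3.19% and 3.39% of all probes. The methods' threshold, at least 2-fold with an unadjusted p of 0.05 or less by the methods' t-test, took the same numbers, 1 higher and 2 lower, beside 2.31% and 4.11% of all probes. All 3 arrays of one genotype lay above all 3 of the other for 5 histone probes (2T-p190-B-/- higher in 2, 3.51%, and lower in 3, 5.26%), beside 4.53% and 11.7% of all probes. None of the histone shares was clearly above that of all probes. The differences between the shares were not tested, and the 5 probes without overlap became 9 with normexp and 8 without the filter on dim probes. The shares of all probes without overlap are not given for those settings. All probes at an unadjusted limma p under 0.05 also became more there, 3610 with normexp and 2215 (of 39328) without the filter. Within a genotype the arrays differed widely, with a median SD of 1.15 for replication-dependent and 1.34 for replacement-variant probes, beside 1.06 over all probes, so that a 2-fold difference was within the spread for most. With 3 arrays per genotype, the smallest two-sided p of an exact permutation test is 0.1.

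Set side by side, the 2 classes differed from each other by less than they varied between arrays. The median log2 difference (2T-p190-B-/- minus 2T-WT) was −0.41 over the 38 replication-dependent probes, with 15 higher and 23 lower, and −0.36 over the 19 replacement-variant probes, with 5 higher and 14 lower. Over all probes tested the median was −0.33 and 39.3% were higher, and below that median were 20 replication-dependent and 10 replacement-variant probes. At least 2-fold higher were 5 and 2 of the probes (15.9% of all probes), and at least 2-fold lower were 8 and 4 (27.8%). The median of the replication-dependent class turned to 0.10 after quantile normalization and 0.05 after normexp background correction, where the medians of all probes were −0.10 and −0.47, so its direction depended on the scaling, and with 1 array left out it was −0.35 to −0.14. Relative to all probes it was −0.08, 0.20 and 0.52 in the 3 scalings, and the replacement variants were at −0.03, −0.07 and −0.12.

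On single arrays, each probe centred on its mean, the median of the replication-dependent class was 0.22, −0.34 and 0.32 in 2T-WT and −0.24, −0.36 and 0.17 in 2T-p190-B-/-. The replacement variants were at 0.11, 0.19 and 0.64, and at −0.45, −0.71 and −0.18. Taking one from the other gave 0.11, −0.52 and −0.32 in 2T-WT and 0.21, 0.35 and 0.35 in 2T-p190-B-/-, where all 3 values lay above the 3 of 2T-WT. The order was a description of 1 of several class values looked at, and the difference of the 2 class medians given above, −0.05, had the opposite sign. That difference was 0.01 to 0.37 with 1 array left out, so that leaving out any array turned its sign, and 0.06 with near-identical probes counted once. It was −0.25 with 1 probe per gene, 0.27 after quantile normalization, 0.64 after normexp, −0.31 over the probes readable on all 6 arrays, and 0.32 both with the slide as a block and within slide 2. Only slide 2 carries both genotypes (replicates 2 and 3 of 2T-WT with replicates 1 and 2 of 2T-p190-B-/-), and within it the class medians were −0.38 and −0.70, beside −0.47 for all probes.

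**Figure D3:**
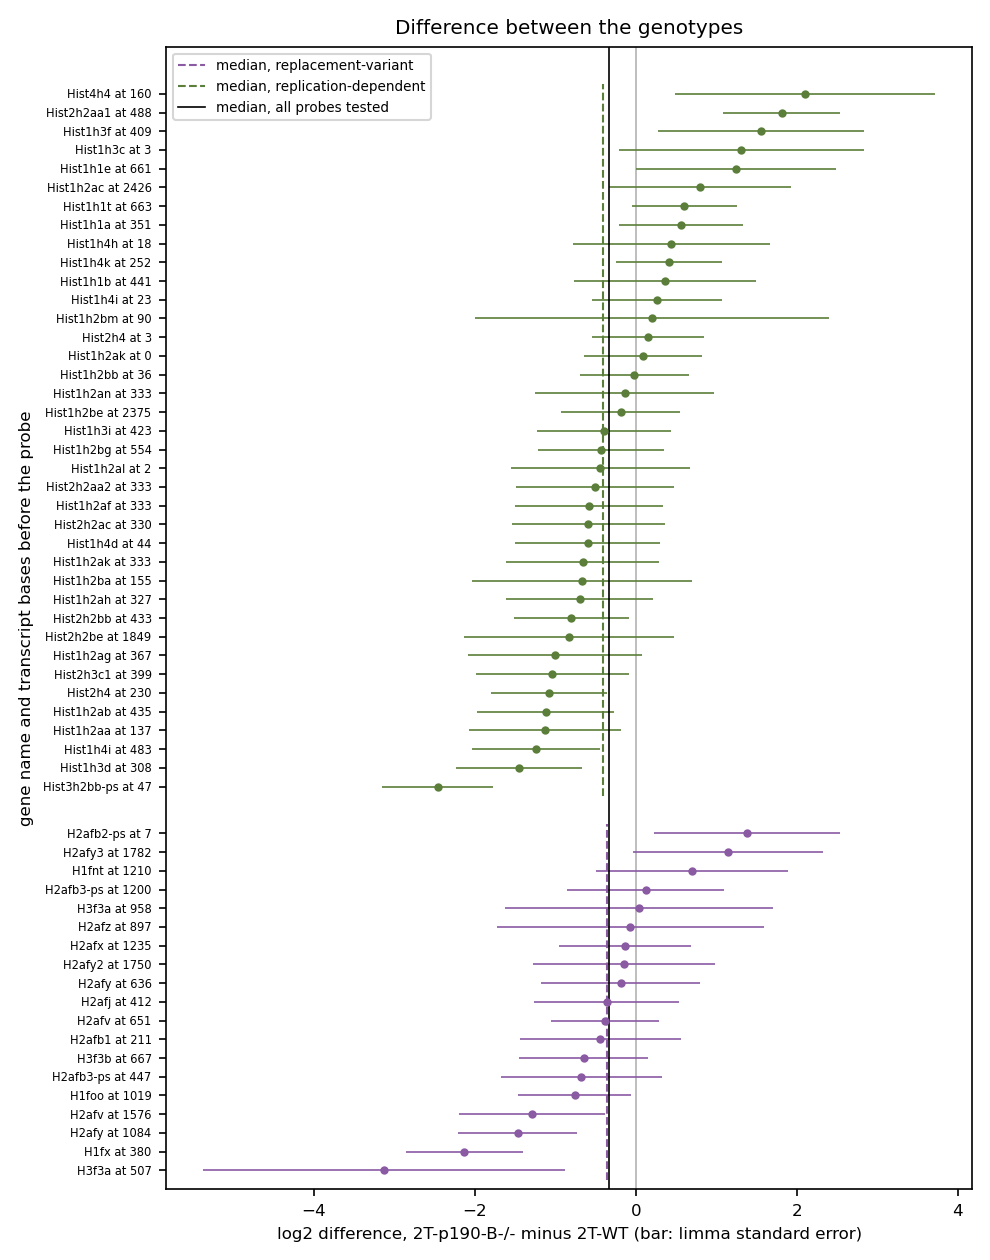
Log2 difference (2T-p190-B-/- minus 2T-WT) of each of the 57 histone probes tested, with the limma standard error as bar, replication-dependent in green and replacement-variant in purple. Dashed lines mark the class medians, −0.41 and −0.36, and the solid black line the median of all probes tested, −0.33. Most bars reach across that line.

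Linker histones (H1) bind DNA between nucleosomes. All 4 tested cluster H1 probes were higher in 2T-p190-B-/-, beside 39.3% of all probes, with a median of 0.58 (0.89 after quantile normalization and 0.75 with normexp). Without 2T-p190-B-/- replicate 3 only 2 of the 4 were higher and the median was −0.01, and within slide 2 it was 0.01. Among the 4 is the testis form Hist1h1t, at 0.60 (SE 0.65), the only one without overlap. Whether its signal is RNA of that gene was not tested. Hist1h1e, a main somatic linker histone (H1.4), read −1.48, −2.06 and −0.38 in 2T-WT and −0.26, −2.44 and 2.51 in 2T-p190-B-/-. Its difference of 1.24 (SE 1.24, limma adjusted p = 0.741) rested on the single high value and was −0.05 without that array, and −0.13 within slide 2. Hist1h1a (H1.1) read 1.39, 0.80 and 0.96, then 1.29, 0.76 and 2.77, with the same array high. Hist1h1b (H1.5) spread from −2.13 to 2.20 within 2T-p190-B-/-. Hist1h1c (H1.2) was not tested, being readable only on 2T-p190-B-/- replicates 1 and 3.

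H1fx (now H1f10), which encodes the linker variant H1.10, or H1x, was the replacement variant with the clearest separation. It read 0.85, 2.08 and 2.48 in 2T-WT and −0.67, 0.03 and −0.35 in 2T-p190-B-/-, so that every 2T-WT value was above every 2T-p190-B-/- value. The difference was −2.13 (SE 0.73, limma unadjusted p = 0.0192, adjusted p = 0.638), a 4.38-fold lower mean that did not pass the adjusted threshold. It ranged from −2.61 to −1.50 over the alternatives run, the latter with normexp. The probe, at chromosome 6 from 87931037 to 87931096 of mm9, was well above background on all arrays. H1f0, the linker histone of resting and differentiated cells (H1.0), was above background on 1 array, 2T-WT replicate 2, at −3.93, and was not tested.

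The largest negative difference among cluster probes was that of Hist3h2bb-ps, a pseudogene of the H2B family in the Hist3 cluster (chromosome 11, 58767908 to 58767967). It read −0.28, −0.84 and −0.66 in 2T-WT and −3.73, −2.38 and −3.03 in 2T-p190-B-/-. Every 2T-WT value was above every 2T-p190-B-/- value, and the difference was −2.46 (SE 0.69, limma unadjusted p = 0.00753, adjusted p = 0.638). It ranged from −2.79 to −1.59 over all alternatives run and passed the adjusted threshold in none, its adjusted p running from 0.343 to 0.855. The remaining 2 Hist3 probes, Hist3h2a and Hist3h2ba, were above background on no array.

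Of the 8 tested H2B probes, 7 were lower in 2T-p190-B-/-, with a median of −0.55, 5 of them under the value of all probes. That median was −0.22 without 2T-WT replicate 2, where 4 were higher and 4 lower, and also −0.22 without 2T-p190-B-/- replicate 3. Hist1h2bb read 0.75, 1.88 and 0.83 in 2T-WT and 0.89, 1.21 and 1.28 in 2T-p190-B-/-, with means of 1.15 and 1.13. At the other extreme, Hist1h2bm ran from −4.43 to 4.97 within 2T-WT alone. Hist1h2ba, a testis form of H2B, was readable on all 6 arrays, at 1.08, 4.69 and −0.86 in 2T-WT and 1.27, 1.79 and −0.15 in 2T-p190-B-/-.

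Hist2h2aa1, an H2A gene of the Hist2 cluster whose probe holds the stem-loop (chromosome 3, 96049949 to 96050008), was the only histone probe higher in 2T-p190-B-/- at an unadjusted limma p under 0.05. It read −4.69, −3.15 and −4.43 in 2T-WT, where 1 of the 3 arrays was well above background, and −2.61, −2.34 and −1.89 in 2T-p190-B-/-, where all were. The difference of 1.81 (SE 0.73, limma unadjusted p = 0.0374, adjusted p = 0.638) became −0.54 with normexp background correction, so its direction depended on the treatment of background. Since the other 2T-WT values were at background, its size is not exact. The probe named for Hist2h2aa2 lies just upstream on the same strand (96049837 to 96049896). By these coordinates both may read the end of 1 transcript, which was not tested. Hist2h2aa2 is 1 of the 6 probes with the shared run and differed by −0.51 (SE 0.98), so the 2 neighbouring probes had opposite signs. Over the 13 tested cluster H2A probes the median was −0.58, with 3 higher and 10 lower, beside −0.33 and 39.3% higher over all probes. Of the 10, 5 hold the shared run and may not be separate measurements, which was not tested. The median was 0.10 after quantile normalization, with 9 higher and 4 lower, and 0.25 after normexp, with 7 higher and 6 lower. It was −1.36 to −0.06 with 1 array left out. Among the lowest in the main fit were Hist1h2ab at −1.12 (SE 0.85, and −1.89 to −0.50 over the alternatives run), at −1.90, −2.70 and −2.06 in 2T-WT and −1.80, −3.96 and −4.24 in 2T-p190-B-/- (the last 2 at background, so that the size is not exact), and the testis form Hist1h2aa at −1.13 (SE 0.94), which was −0.32 without 2T-WT replicate 3 and −1.85 without replicate 2.

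H3 and H4 form the core tetramer of the nucleosome. Hist1h3d was very bright on every array, at 8.81, 7.72 and 9.79 in 2T-WT and 6.98, 7.09 and 7.89 in 2T-p190-B-/-, with a difference of −1.45 (SE 0.78, limma adjusted p = 0.638). Hist1h4i at 483 was also bright on every array, at 9.54, 8.95 and 10.94, then 8.21, 8.28 and 9.22, and differed by −1.24 (SE 0.79). Bright probes of all kinds were lower, however. Over the 737 tested probes with a mean level of 6 or more the median difference was −1.27 (quartiles −1.45 and −1.03), and over the 5323 between 0 and 2 it was −0.17, so both histone probes lay where other bright probes did. After quantile normalization the median of those 737 was 0.05, Hist1h4i at 483 was at 0.09 and Hist1h3d at −0.15, and without 2T-WT replicate 3 the 2 probes were at −0.67 and −0.95. That probe shares stretches of 16 bases with 3 probes of other genes (Galns, Irak2 and 4930455C21Rik), all readable on all 6 arrays, and Hist1h4i at 23 read 0.14, 0.44 and 0.97 in 2T-WT and −0.22, 0.50 and 2.06 in 2T-p190-B-/-, where 2T-p190-B-/- replicate 3 was highest and not, as at 483, 2T-WT replicate 3.

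Hist1h3f was the only histone probe above background on every array of one genotype and on none of the other. It read −2.45, −4.52 and −4.16 in 2T-WT and −4.04, 0.71 and −3.17 in 2T-p190-B-/-, so the levels overlapped, and the dimmest readable signal differs between arrays. Set against that limit in 2T-WT (on each array the higher of the dimmest readable signal and the probe's own), the 2T-p190-B-/- mean was at least 1.68-fold higher, with an adjusted p of 0.692 in limma, and with normexp the difference was −0.24. The bound rests on 2T-p190-B-/- replicate 2, without which the log2 difference was 0.11 instead of 1.55 and the remaining 2 values averaged below that limit, so that no bound remained. Hist1h3c, whose probe shares 25 bases with that of Hist1h3f, read 2.56, −2.52 and −1.61, then −1.59, 2.35 and 1.58 (difference 1.31, SE 1.52, but 0.31 without 2T-WT replicate 2 and 2.85 without replicate 1). Hist4h4 had the highest difference of the cluster probes in the main fit, 2.10 (SE 1.62, limma adjusted p = 0.676), from −4.55, −3.08 and −4.44 in 2T-WT and 0.53, −0.26 and −6.05 in 2T-p190-B-/-. It was readable on 1 and 2 arrays, and 2T-p190-B-/- replicate 3 was the lowest of all 6. With 2 of the 3 2T-WT values at background, neither the size nor the rank of the difference was firm: it was 0.28 with normexp, where Hist1h1t was higher, 0.87 without 2T-p190-B-/- replicate 1, 4.16 without replicate 3 and 3.90 with the slide as a block. Hist1h4k at 252 differed by 0.41 (SE 0.66), or 0.20 without 2T-WT replicate 2. The 8 tested H4 probes had a median of 0.20, with 5 higher and 3 lower, beside −0.33 and 39.3% higher over all probes. That H4 median was −0.20 without 2T-WT replicate 3, −0.08 without 2T-WT replicate 1 and −0.10 within slide 2.

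**Figure D4:**
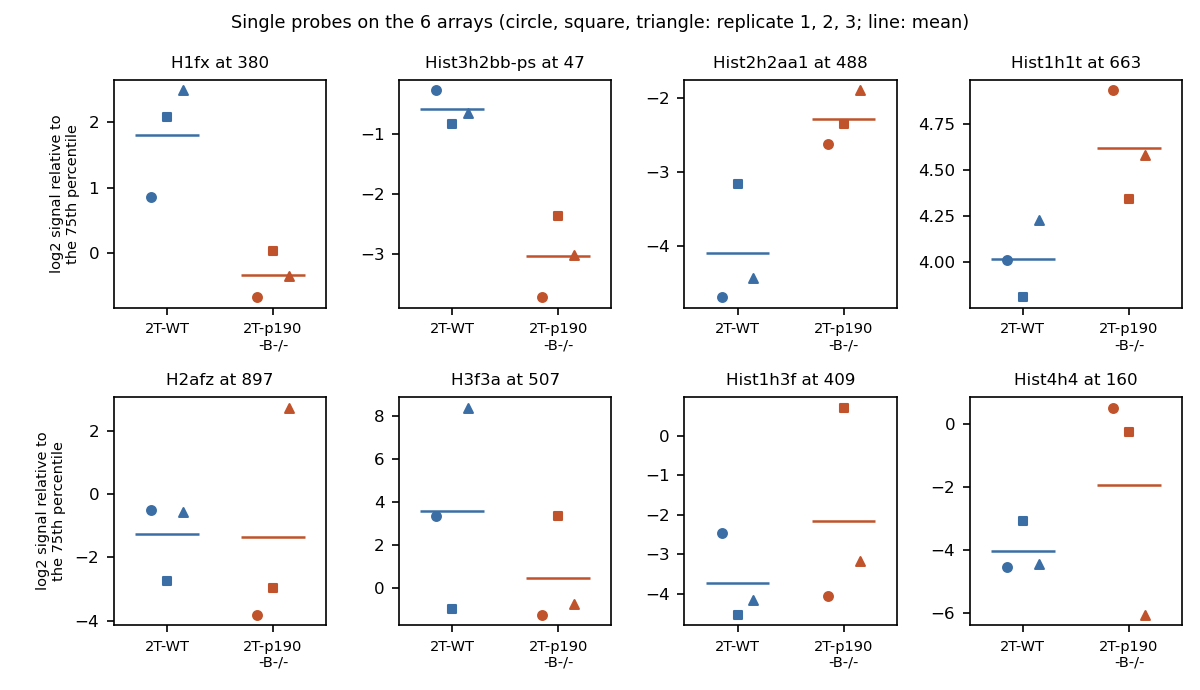
Log2 level of 8 histone probes on the 6 arrays, 2T-WT in blue and 2T-p190-B-/- in orange, with a symbol for each replicate number and a line at the mean of 3. The scales differ between panels. The genotypes do not overlap for H1fx, Hist3h2bb-ps, Hist2h2aa1 and Hist1h1t, while 1 array stands far from the rest for H2afz and H3f3a. Hist2h2aa1 was well above background on only 1 2T-WT array, so that its order follows the background on the others.

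Variant H3.3 is encoded by H3f3a and H3f3b and is loaded outside S phase. H3f3a at 507 had the widest values of the tested variants, 3.35, −0.98 and 8.39 in 2T-WT and −1.24, 3.35 and −0.76 in 2T-p190-B-/-. Its difference of −3.13 (SE 2.25, limma adjusted p = 0.657) was smaller than the distance between 2T-WT replicates, and was −0.74 without 2T-WT replicate 3 and −5.42 without replicate 2. The probe shares 16 bases or more with 3 probes of other gene names (Gm6128, Gm7900 and LOC100044525). H3f3a at 958 read 1.61, −5.20 and −3.05, then −1.79, −0.91 and −3.82. Its difference of 0.04 (SE 1.66) was 2.77 with the slide as a block and −1.45 without 2T-WT replicate 2. This probe was readable on only 3 arrays, 1 of them 2T-WT, so that the size of the difference is not exact. Replicate 3 of 2T-WT, the highest array at 507, was not high there. H3f3b at 667 read −2.18, −0.36 and −2.61 in 2T-WT and −2.65, −2.23 and −2.22 in 2T-p190-B-/-, a difference of −0.65 (SE 0.80) that was 0.03 without 2T-WT replicate 2.

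H2A.Z marks promoters and is encoded by H2afz and H2afv. Both H2afz probes were high on a single array. H2afz at 897 read −0.50, −2.75 and −0.57 in 2T-WT and −3.81, −2.96 and 2.74 in 2T-p190-B-/-, with a difference of −0.07 (SE 1.66). It was −2.11 without 2T-p190-B-/- replicate 3, −1.73 with the slide as a block and 1.16 without 2T-p190-B-/- replicate 1. Its sign turned in 5 of 14 alternatives, several of which, such as the variance model, cannot change the difference of a probe. H2afz at 793 was above background on 2T-p190-B-/- replicate 3 alone, at 3.58, the rest reading −4.44 or less. H2afv was steadier at 651, with −1.99, −1.55 and −1.10 in 2T-WT and −2.17, −2.05 and −1.57 in 2T-p190-B-/- (difference −0.38, SE 0.67, and −0.82 to −0.16 over the alternatives run), and at 1576 it differed by −1.29 (SE 0.91), or −2.25 with the slide as a block and −0.77 without 2T-WT replicate 3, being readable on only 3 arrays, 1 of them 2T-p190-B-/-, so that its size is not exact.

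H2A.X, phosphorylated at DNA breaks and encoded by H2afx, read 0.00, 0.44 and −1.06 in 2T-WT and 0.86, −1.03 and −0.84 in 2T-p190-B-/- (difference −0.13, SE 0.82), with the genotypes overlapping. The sign of this difference turned in 5 of 15 alternatives, with values from −0.73 to 0.23. Several of the 15, such as the filters and the variance model, cannot change the difference of a probe. The slide block and slide 2 alone both gave 0.23. The count is therefore no measure of stability. MacroH2A.1, a form with a large extra domain found in silent chromatin, is encoded by H2afy. At H2afy at 1084 the values were −1.96, −1.77 and −0.50 in 2T-WT and −3.14, −3.26 and −2.26 in 2T-p190-B-/-, which do not overlap. The difference was −1.47 (SE 0.74, limma adjusted p = 0.638) and ranged from −2.06 to −1.02 over the alternatives run. On 2T-p190-B-/- replicate 2 the probe was at background, so that the size is not exact. H2afy at 636, in an earlier part of the transcript, read −2.39, −1.38 and 0.90, then −1.34, −0.21 and −1.90, a difference of −0.19 (SE 0.99) that was 0.73 without 2T-WT replicate 3 and 0.18 without 2T-p190-B-/- replicate 3. The genotypes overlapped there, and H2afy at 857 was above background on no array. H2afy2, for macroH2A.2, differed by −0.15 (SE 1.13), or −1.70 with the slide as a block and 0.63 without 2T-p190-B-/- replicate 2. Its highest array was 2T-p190-B-/- replicate 3, at 3.39. H2afy3 (Macroh2a3 in RefSeq), a related gene, read −2.85, −1.92 and −1.27 in 2T-WT and −2.06, −2.34 and 1.81 in 2T-p190-B-/- (difference 1.15, SE 1.18), with the same array high.

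Probes named for histone forms of germ cells gave signal in these samples. Of 11 probes for germ-line forms and pseudogenes, 8 (72.7%) were above background on all 6 arrays, beside 54.5% of all histone probes and 34.9% of all probes. Pseudogenes were taken by the array's gene names, so that Hist1h2al, a pseudogene by its RefSeq symbol and readable on all 6, is not among the 11. In turn Hist2h3c2-ps, above background on no array, is among them although its RefSeq symbol, H3c15, marks no pseudogene. The share thus depends on the names used. H1foo, the linker histone of oocytes, read 7.05, 5.79 and 6.87 in 2T-WT and 5.67, 5.59 and 6.16 in 2T-p190-B-/-, and Hist1h1t, the linker histone of the testis, read 4.01, 3.81 and 4.23, then 4.93, 4.34 and 4.58. The values of Hist1h1t did not overlap, with a difference of 0.60 (SE 0.65, limma adjusted p = 0.764, methods' t-test unadjusted p = 0.0466), or 1.36 after quantile normalization, and its SD within a genotype was 0.21 and 0.30. Means of the other 8 tested probes ran from −3.05 to 1.64 over both genotypes. H1fnt, a form of the spermatid, spread from −0.62 to 3.31 in 2T-p190-B-/-. Whether the signal of these probes is RNA of the named gene was not tested.

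**Figure D5:**
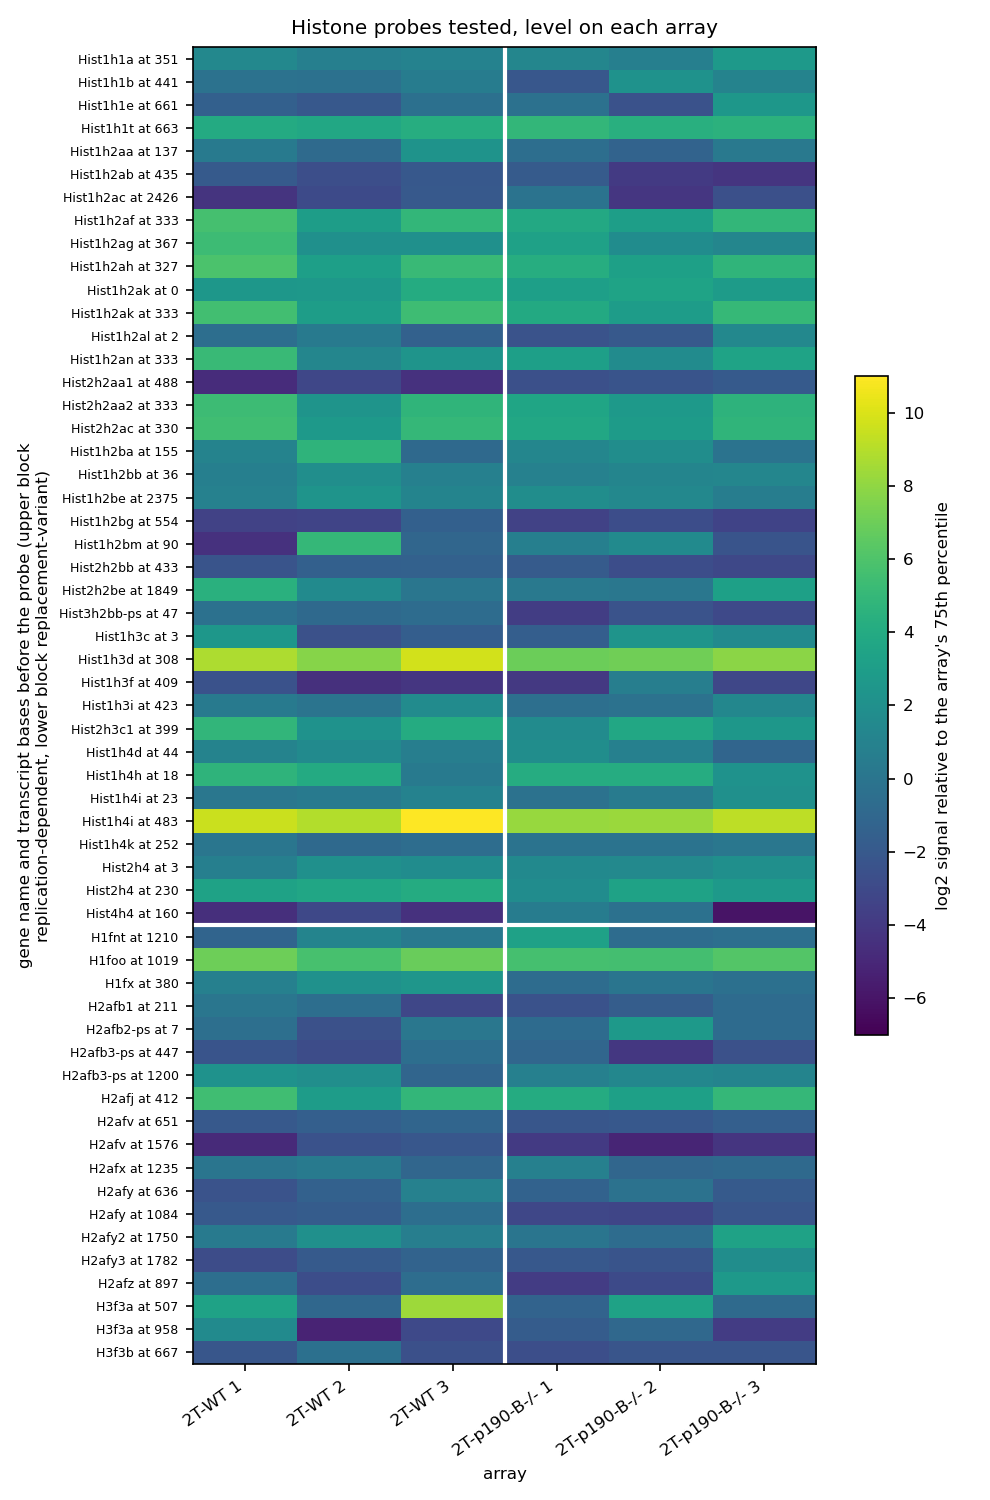
Log2 level of the 57 tested histone probes (1 per line) on the 6 arrays, replication-dependent probes above the white line and replacement variants below, each ordered by family. Colours compare arrays within a line, not lines with each other. H2A probes with the shared run repeat a common pattern, with 2T-WT replicate 2 and 2T-p190-B-/- replicate 2 lowest.

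Some genes were read by more than 1 probe. Of 11 histone genes with more than 1 probe, 7 pairs of probes had both members tested, and in 5 of the 7 the differences had opposite signs, as in Hist2h4, with 0.15 at 3 and −1.08 at 230, and Hist1h2ak, with 0.09 at 0 and −0.66 at 333. In each of the 5 pairs at least 1 of the 2 differences was smaller than its SE, so the signs do not show that the probes disagreed.

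The machinery that makes and handles histone RNA was described with a list of 16 processing genes, of which 10 were tested. Of these, 5 were higher and 5 lower, with a median difference of −0.16 and 0 past an adjusted p of 0.05. Over all probes 39.3% were higher and the median was −0.33. Slbp, whose protein binds the stem-loop, read −2.98, −3.40 and −2.38 in 2T-WT and −4.35, −2.08 and −4.51 in 2T-p190-B-/- (difference −0.73, SE 0.86) and was readable on 3 arrays. Npat, the cyclin E-Cdk2 target that switches on the clusters, read −2.05, −1.63 and −1.12, then −2.17, −0.56 and −1.24 (difference 0.27, SE 0.73). Both overlapped between genotypes. Genotypes were apart without overlap in 4 of the 10, with Sympk higher and Casp8ap2, Cstf2 and Ncbp2 lower, beside 4.53% and 11.7% of all probes. Casp8ap2 was readable on only 1 2T-p190-B-/- array, so that its order there follows the background.

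Of 25 histone chaperone and loading genes, 14 were tested, 4 higher and 10 lower, with a median of −0.48 and 0 past an adjusted p of 0.05. Over all probes 39.3% were higher and the median was −0.33, and 8 of the 14 lay below that median. Of these 14, 1 (Ubn2, with 2 values in 2T-WT) was lower without overlap and 0 were higher, beside 11.7% and 4.53% of all probes. Chaf1a and Chaf1b, subunits of the factor that deposits new H3 and H4 behind the replication fork, differed by 2.16 (SE 1.42, with 1 2T-WT array readable) and −0.74 (SE 0.74). Asf1b, which hands H3 and H4 to it, differed by −0.55 (SE 0.74, with 1 2T-WT array readable), Nasp, a carrier of H3 and H4, by −0.99 (SE 0.78), and Daxx, which loads H3.3, by −0.41 (SE 1.07). Hira, the other H3.3 loader, was readable on 2 arrays, both 2T-p190-B-/-, Cenpa on 1 array of each genotype, and Asf1a, Atrx and Anp32e on none.

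Of 20 S phase and proliferation genes, 12 were tested, 7 higher and 5 lower, with a median of 0.05 and 0 past an adjusted p of 0.05. Over all probes 39.3% were higher and the median was −0.33. On no array were 4 genes above background (Mcm2, Mcm3, Ccne2 and Rrm2). Mcm6, a subunit of the replicative helicase, was the only tested member without overlap, at −2.05, −1.66 and −3.37 in 2T-WT and −0.20, −0.30 and 0.66 in 2T-p190-B-/- (difference 2.41, SE 0.76, limma unadjusted p = 0.0126, adjusted p = 0.638). On 2T-WT replicate 3 Mcm6 was at background, so that the size is not exact. Over all probes, 4.53% were higher and 11.7% lower without overlap. The summed level of the list, on the linear scale in units of the 75th percentile, was 17.1, 10.8 and 137 in 2T-WT and 12.7, 12.0 and 18.5 in 2T-p190-B-/-. The high sum on 2T-WT replicate 3 was mostly Mki67, at 6.87 there and 2.59 or less elsewhere. Pcna was readable on 1 array of each genotype. Replication-dependent histones were not set apart on that array, at 0.32 beside 0.30 for all probes.

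Of 10 genes of the sort gate and of stem cells, 5 were tested, 3 higher and 2 lower, with a median of 0.74. For this and the lists below, the values over all probes were 39.3% higher and a median of −0.33. Without overlap, 1 of the 5, Mecom, was higher, beside 4.53% of all probes. The sum of the 8 with values on all arrays was 62.1, 41.1, 139, 39.4, 27.3 and 66.7 (mostly Fgd5). Of these genes, Kit was readable on 5 arrays and Ly6a (Sca-1) on all 6, but Slamf1, which encodes CD150, and Procr on none. Cd48, which the gate leaves out, was readable on all 6, at 2.02, 0.09 and −1.41 in 2T-WT and 0.38, 0.96 and 2.05 in 2T-p190-B-/-. Of 7 tested B lymphocyte markers, 6 were lower in 2T-p190-B-/- and 1 higher, with a median difference of −1.43 and 0 past an adjusted p of 0.05. Only 1 of the 7, Vpreb1, was lower without overlap, beside 11.7% of all probes. The summed level of the 8 listed was 6.29, 5.38 and 725 in 2T-WT and 6.45, 4.54 and 6.30 in 2T-p190-B-/-, the sum on 2T-WT replicate 3 being mostly Cd79a, at 9.47. Ebf1, Pax5, Vpreb1, Igll1 and Rag1 were also highest on 2T-WT replicate 3, while Cd79b was not. Dim probes of all kinds were highest there too. Over the 7116 tested probes with a mean level below −2, where Ebf1 and Rag1 lay, the centred median on 2T-WT replicate 3 was 0.63. On that array H3f3a at 507 was highest too, at 8.39. Without it the class medians were −0.29 and −0.38, beside −0.24 for all probes, and any part of other cells in the histone values was not tested. For the remaining lists the sums in 2T-WT and then 2T-p190-B-/- were 582, 323, 985, 221, 212 and 298 for red cell precursors (mostly Ermap, with Hbb-b1 at background on every array). For neutrophils they were 12.7, 15.2, 7.35, 7.40, 8.18 and 6.11 (largest part Lcn2, with S100a9 at background). For T lymphocytes they were 85.1, 40.2, 139, 30.4, 30.7 and 54.4 (mostly Cd4), and for megakaryocytes 9.90, 23.7, 9.78, 9.55, 6.70 and 8.69 (largest part Vwf). Lcn2 and Vwf were not the largest part on every array. The red cell and T lymphocyte sums are mostly the signal of 1 probe and do not measure a number of cells. Ermap is among the 737 bright probes given above, whose median by array, each centred on its mean, was 0.55, −0.27 and 1.65 in 2T-WT and −0.91, −0.79 and −0.18 in 2T-p190-B-/-, also highest on 2T-WT replicate 3. The median differences of these lists were 0.18 over 4 tested red cell genes, −0.65 over 8 neutrophil, −0.32 over 5 T lymphocyte and −0.21 over 3 megakaryocyte genes. Ermap, Mpo and Gp1bb, 1 each of the red cell, neutrophil and megakaryocyte genes, were lower without overlap, and no T lymphocyte gene was.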

How the data were processed

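LSK-SLAM RNA of 3 2T-WT and 3 2T-p190-B-/- samples was measured on 1-colour Agilent arrays. The authors deposited Feature Extraction 10.5.1.1 files whose processed signal is a linear intensity, corrected for background and spatial trend within each array and not scaled between arrays, and a second table that equals it divided by 1 number per array. Control and outlier spots were dropped, and saturated spots numbered 0. Signals were divided by the 75th percentile of their array, taken as log2 and averaged per probe. Probes well above background on at least 3 arrays with 2 values per genotype were fitted with limma 3.58.1 in R 4.3.3 (lmFit and eBayes, two-sided, Benjamini-Hochberg over all 25127 probes). Python 3.11.15, pandas 2.3.3, numpy 2.4.6 and matplotlib 3.10.9 did the rest. All 77 histone probes matched RefSeq, 72 by accession and 5 by synonym, and the array's names were kept. Coordinates are the files' (mm9).

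Named were the tested probes of 10 somatic replacement variants, the 5 highest and 5 lowest cluster probes, those past the methods' threshold or at a limma p under 0.05, those readable on every array of 1 genotype and none of the other, and histones in the study's gene lists, which were chosen on these samples. Other histones named were picked after their values were seen. Members and lists were chosen with earlier results of these data known. Alternatives were other scaling, background, filters, blocks and variance model, leaving out each array, the methods' t-test, 1 probe per gene, and no germ-line forms or pseudogenes. Slide 2 alone and near-identical probes counted once were added after the data were seen. Genes of other lists were represented by their brightest tested probe. The number of arrays limits the precision. The replicates are said to be independent mice.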

Additional observations from a re-analysis of the deposited data

Results flagged for a closer look

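Of 20 histone probes that were not tested, 7 (35%) were well above background on at least 1 2T-p190-B-/- array and on no 2T-WT array, and 2 (10%) the other way round. Over all 14302 untested probes these shares were 28.3% and 12.3%. The highest 2T-p190-B-/- value less the highest 2T-WT value, on the log2 scale, depends on where the background lies, since no 2T-WT array was above it, and was 8.02 for H2afz at 793, 6.09 for Hist1h1c at 1342, 2.95 for Hist1h4c at 36, 1.27 for Hist1h4k at 36 and 0.58 for Hist1h2bp at 505. It was −0.91 for Hist1h4j at 24 and −1.74 for H2afj at 1664, where a 2T-WT array read higher although it was not called above background. Set against the limit used for Hist1h3f, the mean was at least 1.656-fold higher in 2T-p190-B-/- for Hist1h1c, 1.11-fold for Hist1h4k and 1.088-fold for H2afz, with no bound for the other 4. The 2T-p190-B-/- means in these bounds include readings at background, and without the array on which the probe was highest none of the 3 keeps a bound. In the opposite direction, H3f3b at 1738 read −4.57, 0.85 and −4.27 in 2T-WT, readable on replicate 2 alone, and −6.92, −4.90 and −5.72 in 2T-p190-B-/- (at least 2.244-fold lower, with no bound without 2T-WT replicate 2), and H1f0 was readable on 2T-WT replicate 2 with no bound. The probes of Hist1h4c and Hist1h4k share 52 of 60 bases, and those of Hist1h4j and Hist1h4k at least 25 in a row. These 3 may therefore not be independent, which was not tested. The difference between genotypes was not tested for these probes, and neither was a cause.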

How the results depend on the processing

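No alternative gave a probe with a limma adjusted p under 0.05. The methods' t-test, unadjusted, took 1783 probes, 4 of them histones. Histone probes past the methods' threshold numbered 6 with normexp and 5 without the filter on dim probes, beside 3. Those whose groups do not overlap numbered 9 with normexp, 8 without the filter, 3 above background on all 6 arrays, 3 without germ-line forms and pseudogenes, 24 within slide 2 (fewer arrays) and 7 to 16 with 1 array left out, beside 5. Fewer arrays separate more easily. The shares of all probes in these settings are not given for either count, so neither shows anything particular to histones. The replication-dependent median was 0.10 after quantile normalization and 0.05 with normexp, −0.35 to −0.14 with 1 array left out, −0.44 with 1 probe per gene and −0.30 with near-identical probes counted once. The replacement-variant median was −0.70 with the slide as a block and within slide 2, −0.72 to −0.32 with 1 array left out, and −0.19 with 1 probe per gene. The difference of the medians was 0.27 after quantile normalization, 0.64 with normexp, −0.31 over probes above background on all 6 arrays, 0.32 with the slide block and within slide 2, 0.01 to 0.37 with 1 array left out, −0.25 with 1 probe per gene and 0.06 with near-identical probes counted once. Signs turned after quantile normalization for H2afj at 412 (0.37) and Hist1h4i at 483 (0.09), and with normexp for H2afj at 412 (0.53), H2afy2 (0.07), H2afz at 897 (0.07), H3f3a at 958 (−0.59), Hist1h3f (−0.24) and Hist2h2aa1 (−0.54). They turned with the slide block, and equally within slide 2, for H2afx (0.23) and Hist1h1e (−0.13). Both gave 2.77 for H3f3a at 958 (main 0.04), −1.70 for H2afy2 (−0.15), −1.73 for H2afz at 897 (−0.07), 3.90 for Hist4h4 (2.10), 2.68 for Hist1h3f, 2.45 for Hist1h3c, −0.50 for Hist1h2ab and −2.25 for H2afv at 1576. With 1 array left out the range was −1.11 to 0.15 for H2afj at 412, −0.73 to 0.22 for H2afx, −0.91 to 0.73 for H2afy at 636, −1.38 to 0.63 for H2afy2, −2.11 to 1.16 for H2afz at 897, −1.45 to 1.95 for H3f3a at 958, −1.09 to 0.03 for H3f3b at 667, −0.05 to 2.43 for Hist1h1e, −5.42 to −0.74 for H3f3a at 507 (main −3.13), 0.11 to 2.48 for Hist1h3f (1.55), 0.87 to 4.16 for Hist4h4, 0.31 to 2.85 for Hist1h3c (1.31), −1.89 to −0.66 for Hist1h2ab (−1.12), −1.85 to −0.32 for Hist1h2aa (−1.13), −2.14 to −0.77 for H2afv at 1576 (−1.29) and −1.98 to −0.95 for Hist1h3d (−1.45). With the replicate number as a block the medians were again −0.41 and −0.36, since this balanced block cannot change a difference. It gave 1871 probes at an unadjusted limma p under 0.05. The cause was not tested. Signal over background limits dim probes. Slide 2 alone was chosen after seeing the data.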
